A study of Mus musculus with 12 samples.

Results

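The Ly6 surface proteins described here are the products of 4 mouse genes, Ly6a, Ly6c1, Ly6c2 and Ly6e, chosen by name together with every array probe annotated to those symbols. Ly6e had 2 probes (ILMN_2776278 and ILMN_2984828) and Ly6c1 had 1 (ILMN_1254927), so that 3 of the 45281 probes on the array belonged to the set. By name, 2 of the 4 genes had a probe, out of 19057 named genes with a probe. No probe carried the symbol Ly6a or Ly6c2 in the annotation used here, and these genes were not analysed here. RNA came from mouse embryonic fibroblasts (MEFs), connective tissue cells grown in culture, of genotype Sirt2+/+ (wild type) or Sirt2-/- (knockout). Cells of both genotypes were left untreated or given mouse IFNβ, a type I interferon, at 2500 IU/ml for 4 h, which makes 4 groups of 3 Illumina bead arrays (12 in all). The labels do not give the strain, the age of the embryos or whether the arrays of a group come from separate cultures, embryos or clones, so a p-value here reflects only how far these arrays spread, which may be technical.

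Ly6 proteins are small cysteine-rich proteins that most members of the family hold on the outer face of the cell membrane through a glycosylphosphatidylinositol (GPI) lipid anchor. Many mouse Ly6 genes lie side by side in 1 cluster on chromosome 15, and several are known as interferon-induced genes. Ly6e is widely expressed and is known to alter how viruses enter cells. Ly6a, also called stem cell antigen, marks haematopoietic and mesenchymal progenitor cells, and the products of Ly6c1 and Ly6c2, the Ly6C antigens, mark monocytes, some lymphocytes and endothelial cells. Type I interferon acts through the receptor made of Ifnar1 and Ifnar2, the kinases Jak1 and Tyk2 and transcription factors that include Stat2 and Irf9.

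Ly6c1 and Ly6c2 are close copies of each other, and the probe named Ly6c1 has no sequence in the sources used here, so which copy it reports cannot be told apart. In the results below, Ly6c1 stands for the signal of this probe. The bases just upstream of the 5′ ends of the 2 genes, as RefSeq annotates them on build GRCm38.p6, are printed below. The longest run they share is in capitals. These bases lie outside the annotated genes, so they do not show which copy the probe reports. The Ly6c1 stretch is chr15:75048921-75049087 and the Ly6c2 stretch is chr15:75112067-75112221, both on the minus strand and written 5′ to 3′.
Ly6c1: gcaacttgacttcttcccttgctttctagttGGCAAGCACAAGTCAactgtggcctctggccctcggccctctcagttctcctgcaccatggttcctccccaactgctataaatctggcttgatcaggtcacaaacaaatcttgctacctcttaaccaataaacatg
Ly6c2: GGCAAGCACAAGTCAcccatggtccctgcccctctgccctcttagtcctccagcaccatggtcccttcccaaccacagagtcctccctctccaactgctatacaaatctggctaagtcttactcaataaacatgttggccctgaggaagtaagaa
In a global alignment of these stretches of 167 and 155 bases, 99 positions were identical and 35 differed. So 73.9% of the positions aligned base to base matched, with 54 gap positions left out of this share. The shared run is 15 bases long. A search of the 4 promoter windows of 250 bases listed for these 2 genes, on both strands, found 0 matches to the interferon-stimulated response element, searched as GAAA, any 2 bases and GAAA, and 0 to the gamma-activated site, searched as TTCNNNGAA. Of 32851 such windows over all genes, 2.977% held the first motif and 7.02% the second. The windows of each of the 2 Ly6c genes overlap, and 1 Ly6c1 window lies wholly inside the annotated gene. Outside the annotated genes, only the 167 and 155 bases printed above were searched.

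Between 17091 and 18155 probes were detected per array at a detection p under 0.05, and the arrays of a group correlated with r between 0.987 and 0.995 over probes, which are not independent replicates. Levels below are log2 intensities after background correction and quantile normalization, and 17837 probes detected on all 3 arrays of at least 1 group were tested. All 3 Ly6 probes passed this filter, the Ly6e probes in each group and the Ly6c1 probe in each group but the untreated knockout. Sirt2, the deleted gene, was lower in the knockout by −2.41 ± 0.18 (SE, n = 3 per group, limma's adjusted p = 1.92e-07) without IFNβ and by −2.86 ± 0.18 (adjusted p = 4.91e-08) with it, and its groups of different genotype did not overlap. The Sirt2 probe was still detected on all 6 knockout arrays, at 6.04, 6.66 and 6.61 untreated, and its place relative to the deleted part is not stated in the labels. The 3 untreated knockout arrays were not alike. This was seen in 33 genes present in wild-type cells and near background in the treated knockout. Their median was counted from treated knockout array 1, set to 0%. It stood at 0.00724%, 6.18% and 4.51% of the way to the wild-type level in untreated knockout arrays 1, 2 and 3. A set of 23 interferon-induced genes stood at 0%, 11.2% and 15% of the way to the treated knockout level, counted from untreated knockout array 1. The results of the Ly6 probes are therefore given with and without untreated knockout arrays 2 and 3. The same holds for the counts of gene groups in which these arrays matter and for single genes that moved by over 1.5-fold. On the same count, treated knockout arrays 2 and 3 stood at 1.77% and 1.64% in the 33 wild-type-only genes. They detected 23 and 25 of these genes, against 8 in treated knockout array 1. The treated arrays were left out only singly.

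Ly6e rose with IFNβ in both genotypes and was lower in the knockout in both conditions. Its first probe, ILMN_2776278, read 11.85, 12.16 and 11.92 on the untreated wild-type arrays and 13.22, 13.17 and 13.26 on the treated ones. In the knockout it read 10.18, 11.06 and 11.22 untreated and 12.60, 12.23 and 12.39 with IFNβ. The 4 groups did not overlap. Their order from low to high was untreated knockout, untreated wild type, treated knockout and treated wild type. Treated knockout cells thus stood above untreated wild-type cells. How many of all tested probes had groups without overlap was not counted, here or below, so the lack of overlap is a description. The untreated knockout group was the most spread, with an SD of 0.56 against 0.16 in untreated wild type, and its array 1 was the lowest of the 12.

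The second Ly6e probe, ILMN_2984828, read 10.54, 10.86 and 10.63 in untreated wild-type cells and 12.06, 11.92 and 12.14 in treated ones. In the knockout it read 8.95, 9.48 and 9.89 untreated and 11.47, 11.03 and 11.07 with IFNβ. The groups stood in the same order as with the first probe, again without overlap. The probes followed each other over the 12 arrays with Pearson's r = 0.995, given as a description because they share the libraries.

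Ly6c1 rose with IFNβ in both genotypes as well, but its levels were far apart between the genotypes. It read 9.27, 9.74 and 9.33 in untreated wild-type cells and 11.20, 11.34 and 11.14 in treated ones. In the untreated knockout it read 4.80, 4.73 and 6.79, and it was detected on array 3 alone, with detection p-values of 0.0791 and 0.108 on arrays 1 and 2. In the treated knockout it read 7.12, 7.01 and 7.25 and was detected on all 3 arrays. The groups did not overlap and stood in the order untreated knockout, treated knockout, untreated wild type, treated wild type: unlike the order of the Ly6e probes, the treated knockout lay below the untreated wild type. As deposited intensities, before any background was subtracted, the Ly6c1 probe ranged from 725 to 949 in untreated wild type, from 2307 to 2573 in treated wild type, from 116 to 204 in the untreated knockout and from 212 to 233 in the treated knockout.

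**Figure D1:**
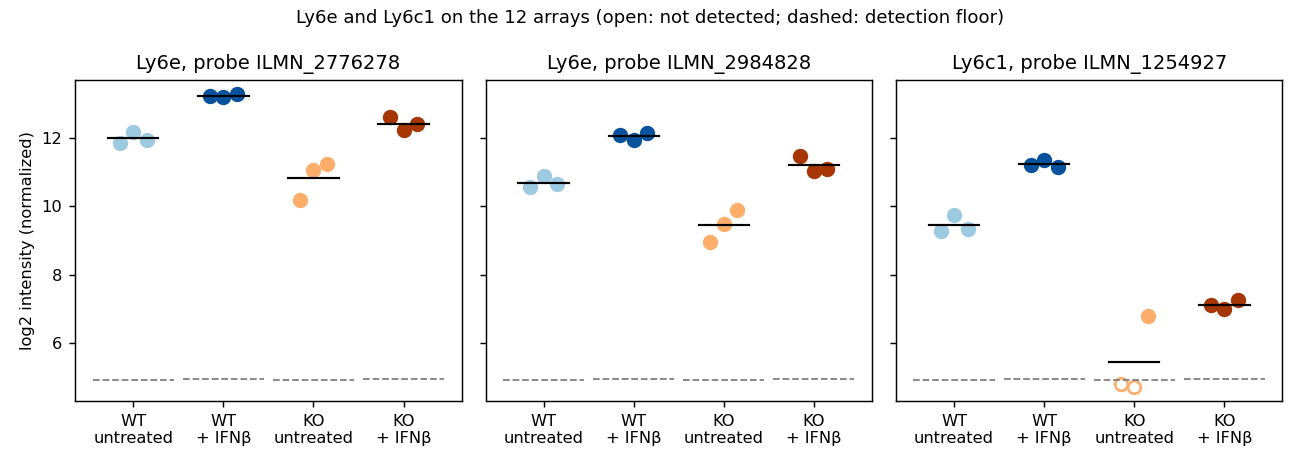
Normalized log2 intensity (y axis) of the 2 Ly6e probes and the Ly6c1 probe on each of the 12 arrays (points), by group (x axis), with group means (bars) and the detection floor (dashed). The groups do not overlap in any panel, and Ly6c1 was not detected on 2 untreated knockout arrays (open points, at 4.80 and 4.73). The share of all tested probes without overlap was not counted.

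The first comparison asked how wild-type cells respond to IFNβ. Ly6c1 rose 3.44-fold, a log2 change of 1.78 ± 0.39 (SE of the fit, 3 arrays per group, limma's adjusted p = 0.00893). Ly6e rose 2.36-fold by its first probe, by 1.24 ± 0.21 (adjusted p = 0.00146), and 2.57-fold by its second, by 1.36 ± 0.20 (adjusted p = 0.00039). In each of the 3 probes all 3 treated arrays lay above all 3 untreated arrays, but the share of all tested probes so separated was not counted. Of all 17837 tested probes, 5.73% rose past the same threshold. A larger rise was seen in 1.38% of the tested probes for Ly6c1, in 2.18% for the first Ly6e probe and in 1.92% for the second. Over all probes, 1022 rose and 1103 fell with quantile normalization, and 933 rose and 1561 fell when arrays were scaled to 1 median.

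In knockout cells the same genes rose. Ly6e rose 3.00-fold by its first probe, by 1.59 ± 0.21 (SE, n = 3 per group, limma's adjusted p = 0.000271), and 3.36-fold by its second, by 1.75 ± 0.20 (adjusted p = 6.94e-05). Ly6c1, detected on 1 of 3 untreated knockout arrays, rose 3.22-fold, by 1.68 ± 0.39 (adjusted p = 0.0192), or at least 3.00-fold with the undetected arrays set to the detection floor. Of all tested probes, 4.02% rose past the threshold: 717 rose and 344 fell, against 640 and 1091 with median scaling. A larger rise was seen in 1.26% and 1.09% of the tested probes for the Ly6e probes.

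The size of the knockout response rested on the untreated knockout arrays. With array 1 as the only untreated knockout array, which is then assumed to vary like the other groups, Ly6e rose 4.69-fold (limma's adjusted p = 3.51e-06) and 4.73-fold (adjusted p = 9.55e-06) by its 2 probes. In that setting Ly6c1 rose at least 4.60-fold, a bound set against the lowest detected signal because the gene was not detected on array 1. Without untreated knockout array 3 alone, the Ly6c1 response was 2.36 on the log2 scale (adjusted p = 1.06e-06), fitted to values below detection on both untreated arrays left. It was 1.36 (adjusted p = 0.0796) without array 1 and 1.33 (adjusted p = 0.087) without array 2, neither past the threshold. Without 1 of the treated knockout arrays it was 1.69, 1.74 and 1.62 (adjusted p = 0.0647, 0.0514 and 0.0629), again not past it. With all 45281 probes tested its adjusted p was 0.0831, and in a fit to the 2 knockout groups alone it was 0.0907. On the authors' deposited log2 values, from which no background was subtracted, the Ly6c1 response in the knockout was 0.72 (adjusted p = 0.0182), and with an offset of 50 in place of 16 it was 1.09 (adjusted p = 0.00747). The level of this probe in the untreated knockout was at the detection floor on arrays 1 and 2 and above it on array 3.

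**Figure D2:**
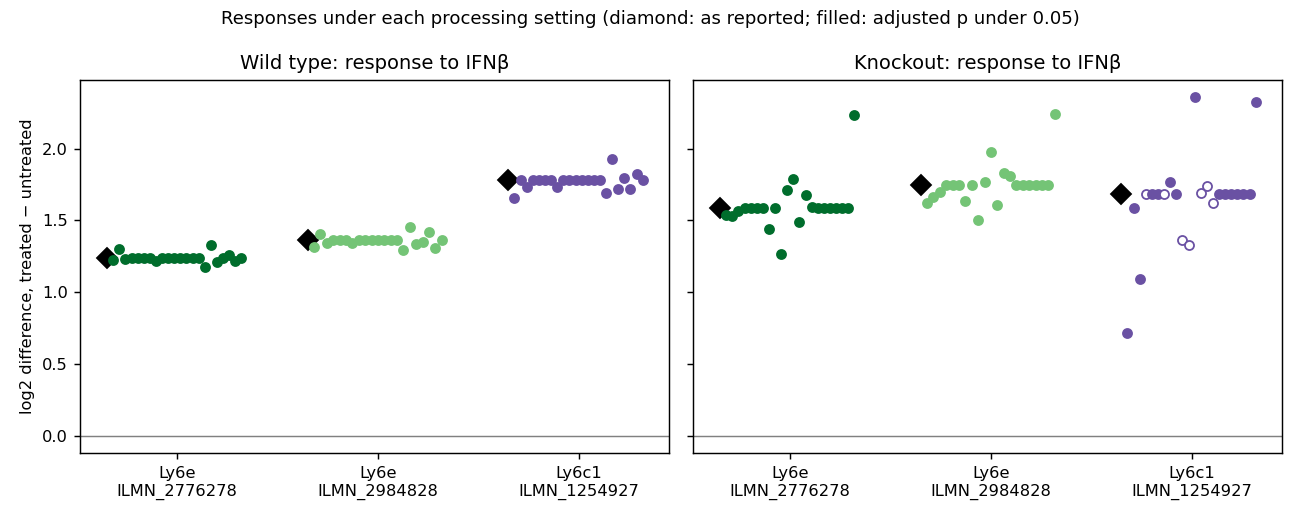
Log2 response to IFNβ (y axis) of each Ly6 probe (x axis) in wild-type and knockout cells as reported (diamond) and under each alternative setting (points), filled where the adjusted p was under 0.05. The Ly6c1 response in the knockout spans 0.72 to 2.36 and has 7 open points, whereas in wild type it spans 1.66 to 1.93.

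The responses of the 2 genotypes were then compared with each other. The knockout response minus the wild-type response was 0.35 for the first Ly6e probe (95% interval −0.30 to 0.99, limma's adjusted p = 0.961) and 0.39 for the second (−0.22 to 0.99, adjusted p = 0.933). For Ly6c1 it was −0.10 (−1.29 to 1.10, adjusted p = 0.998). None of the 3 differences passed the threshold in limma, 0 of 3 had an unadjusted p under 0.05, and the intervals reach log2 differences near 1 for each probe, so the responses are not shown to be alike. Of all tested probes, 0.404% passed the threshold in either direction. The Ly6c1 difference had no stable sign: it was −0.94 (adjusted p = 0.146) on the authors' deposited values, 0.58 without untreated knockout array 3 and 0.55 without arrays 2 and 3. In the settings without array 3, no untreated knockout array left detected the Ly6c1 probe. With array 1 as the only untreated knockout array, the Ly6e differences were 0.99 (adjusted p = 0.159) and 0.88 (adjusted p = 0.392). In that setting all 3 probes had an unadjusted p under 0.05, and none passed after adjustment.

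Between the genotypes, the Ly6c1 probe differed more than either Ly6e probe did on the log2 scale. Without IFNβ it was lower in the knockout by −4.00 ± 0.39 (SE, n = 3 per group, limma's adjusted p = 2.07e-06). Since 2 of the 3 untreated knockout arrays did not detect it, its fold is a bound, at least 15-fold with these arrays set to the detection floor. Ly6e was lower 2.23-fold by its first probe, at −1.16 ± 0.21 (adjusted p = 0.000528), and 2.36-fold by its second, at −1.24 ± 0.20 (adjusted p = 0.000172). A lower level was common in this comparison: 22.6% of all tested probes were lower in the untreated knockout past the threshold. Larger decreases than those of the Ly6e probes were seen in 5.63% and 4.93%.

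These untreated values also moved with the arrays. Against array 1 alone, Ly6e was lower 3.48-fold and 3.33-fold by its 2 probes, and Ly6c1 was lower at least 23-fold. On the authors' deposited values the Ly6c1 difference was −2.49. Without untreated knockout array 3 it was −4.68, fitted to values below detection on arrays 1 and 2. On the linear scale after background correction, offset included, the first Ly6e probe stood at 28.6%, 52.9% and 59.0% of the untreated wild-type mean in arrays 1, 2 and 3, and the second at 29.9%, 43.3% and 57.6%. Ly6c1 stood at 15.7% in array 3, and where it was not detected the floor allows at most 4.31% in array 1 and 4.26% in array 2. Both Ly6e probes were lowest in array 1, as were the wild-type-only and the interferon-induced genes. From array 2 to array 3, Ly6c1 went from at most 4.26% to 15.7%. Between the same arrays the wild-type-only genes went from 6.18% to 4.51% and the interferon-induced genes from 11.2% to 15%. The part of either gene set in the Ly6 values was not tested.

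**Figure D3:**
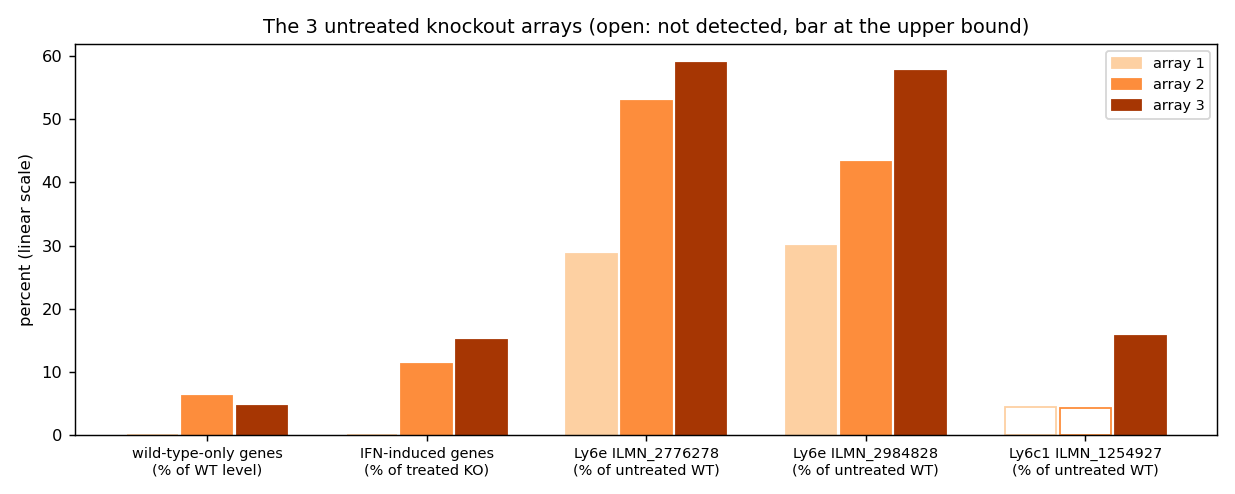
Level on the linear scale (y axis, percent) in untreated knockout arrays 1, 2 and 3 of 33 wild-type-only genes, 23 interferon-induced genes and the 3 Ly6 probes, each relative to the group named on the x axis. The first gene set is counted from treated knockout array 1 and the second from untreated knockout array 1. No such baseline was subtracted for the Ly6 probes, so their bars are not on the same measure. The first 2 bars of array 1 are near 0, Ly6e is lowest in array 1, and Ly6c1 is at 15.7% in array 3 and not detected in arrays 1 and 2 (open bars, at the upper bounds of 4.31% and 4.26%).

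With IFNβ, where all 6 arrays detected every Ly6 probe, Ly6c1 was lower in the knockout by −4.10 ± 0.39 (SE, n = 3 per group, limma's adjusted p = 1.67e-06), which is 17.1-fold. Ly6e was lower 1.75-fold by its first probe, at −0.81 ± 0.21 (adjusted p = 0.00638), and 1.81-fold by its second, at −0.85 ± 0.20 (adjusted p = 0.00296). In the background, 21.7% of all tested probes were lower in the treated knockout past the threshold. A larger decrease was seen in 0.292% of the tested probes for Ly6c1, and in 9.45% and 8.72% for the Ly6e probes. Relative to untreated wild-type cells on the linear scale, treated knockout arrays stood at 19.7%, 18.3% and 21.6% for Ly6c1, but at 154%, 119% and 133% for the first Ly6e probe. The part of the wild-type-only transcripts in these values was not tested. On the authors' deposited values the Ly6c1 difference with IFNβ was −3.43. Fewer cells with a transcript and less RNA per cell cannot be told apart in these bulk samples.

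**Figure D4:**
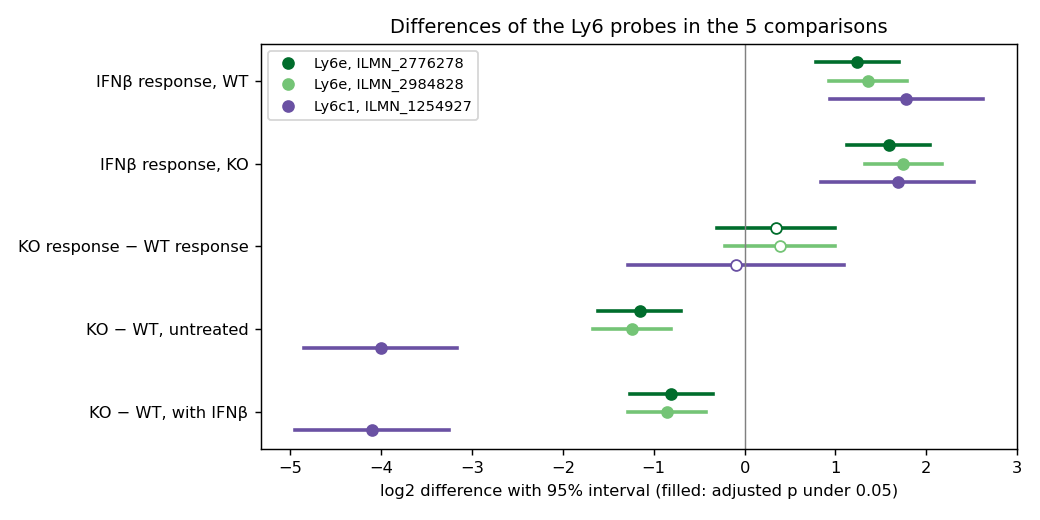
Log2 difference with 95% interval (x axis) of the 2 Ly6e probes and the Ly6c1 probe in the 5 comparisons (y axis), filled where the adjusted p was under 0.05. Both responses to IFNβ lie to the right of 0, both genotype differences to the left, with Ly6c1 near −4, and the 3 differences of the responses span 0.

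The genes whose log2 levels followed Ly6e most closely over the 12 arrays were Tspo (Pearson's r = 0.989), which encodes a protein of the outer mitochondrial membrane, Zfp36 (0.983), an mRNA-decay factor, Ifitm1 (0.978) and Ifitm3 (0.976), membrane proteins that restrict virus entry, and Pip4p1 (0.973). Zfp36 rose by 1.26 in wild type and by 1.23 in the knockout, and was lower in the knockout by −0.76 without and −0.79 with IFNβ. Ifitm3 rose by 0.85 in wild type and by 1.90 in the knockout, and was lower in the knockout without IFNβ, at −1.46 (limma's adjusted p = 0.000301). With IFNβ its difference was −0.42 (adjusted p = 0.181). Against untreated knockout array 1 alone, Ifitm3 rose by 2.63 and was lower by −2.20 without IFNβ. These genes were found among all tested genes by that correlation, which draws on the same groups, and the values are a description.

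For Ly6c1 the closest genes were Upp1 (Pearson's r = 0.979), a uridine phosphorylase, Nat2 (0.978), an arylamine N-acetyltransferase, Dpcd (0.970), Uaca (0.970) and Rbms2 (0.969). Upp1 rose by 0.94 in wild type and by 1.10 in the knockout, and was lower in the knockout by −2.69 without and −2.52 with IFNβ. Nat2 rose by 0.93 and 0.67, and was lower in the knockout by −1.86 and −2.12. Uaca rose by 0.53 and 0.64. The IFNβ response of Dpcd (limma's adjusted p = 0.0928 and 0.395) and of Rbms2 (0.0943 and 0.0695) passed the threshold in neither genotype. Uaca, Dpcd and Rbms2 were each lower in the knockout in both conditions. These genes too were found by a correlation that draws on the same groups, and the values are a description. Ly6c1 and Ly6e correlated with each other at r = 0.825 over the 12 arrays.

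The Ly6 cluster on chromosome 15 holds 24 protein-coding genes from Psca to Ly6l in the RefSeq table, of which 16 had a probe. Detection on all 3 arrays of a group was met by 5 of them: Them6, Lynx1, Gml2, Ly6e and Ly6c1. Ly6d, Ly6k, Ly6m and Ly6i, together with Slurp1, Slurp2 and Lypd2, were detected on 0 of the 12 arrays, and Ly6f on 2 at most. Them6, a gene of this region whose name places it in the thioesterase superfamily and not in the Ly6 family, rose by 0.66 ± 0.11 in wild type (SE, n = 3 per group, limma's adjusted p = 0.00149). In the knockout its change was 0.10 (adjusted p = 0.714), and the difference of these responses did not pass the threshold (−0.56, adjusted p = 0.239). By its brightest probe, Them6 was higher in the knockout, unlike Ly6e and Ly6c1, by 0.85 without IFNβ (adjusted p = 3.42e-05) and by 0.29 with it (adjusted p = 0.0484). The second probe of Them6 was higher by 0.68 without IFNβ (adjusted p = 0.00111), and its difference with IFNβ was 0.24 (adjusted p = 0.173). The third and dimmest was higher by 0.45 without IFNβ (adjusted p = 0.0117), and its difference with IFNβ was −0.12 (adjusted p = 0.49).

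Of 42 other genes of the Ly6 and related receptor family, 32 had a probe and 7 were tested, and the others with a probe were not detected on all arrays of any group. Lynx1, which encodes a GPI-anchored modulator of nicotinic acetylcholine receptors, was the only one of the 7 that rose with IFNβ in wild type, by 0.47 ± 0.13 (SE, n = 3 per group, limma's adjusted p = 0.037). Leaving out untreated knockout arrays 2 and 3 moved this adjusted p to 0.0558. In the knockout 0 of the 7 passed the threshold in either direction by limma, 1 had an unadjusted p under 0.05, and the Lynx1 change there was 0.18 (adjusted p = 0.514). Of all probes, 5.73% rose and 6.18% fell in wild type, and 4.02% and 1.93% in the knockout. Lypd1, whose protein also binds nicotinic receptors, changed by 0.57 in the knockout (adjusted p = 0.0575).

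Between the genotypes without IFNβ, 2 of the 7 were higher and 3 lower in the knockout, with a median of −0.09 against 0.06 over all tested probes, of which 26.3% were higher and 22.6% lower. Lynx1 was lower by −1.05 (limma's adjusted p = 2.55e-05) and Gml2 by −1.18 (adjusted p = 1.3e-05). Cd59a, which encodes an inhibitor of the complement attack on membranes, was lower at least 1.57-fold, a bound because 0 of 3 knockout arrays detected it. Lypd1 was higher by 1.54 (adjusted p = 4.07e-06), and Lypd6, which encodes a GPI-anchored protein tied to Wnt signalling, was higher at least 2.02-fold, since 0 of 3 untreated wild-type arrays detected it. With IFNβ, 2 were higher and 4 lower, with a median of −0.27 against 0.07 over all probes, of which 26.6% were higher and 21.7% lower. The fourth of the lower genes was Plaur, the urokinase receptor, at −0.27 (adjusted p = 0.0335), which did not pass the threshold without untreated knockout arrays 2 and 3 (adjusted p = 0.0515). Ly6g5c changed by −0.02 without and −0.01 with IFNβ (adjusted p = 0.949 and 0.975).

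**Figure D5:**
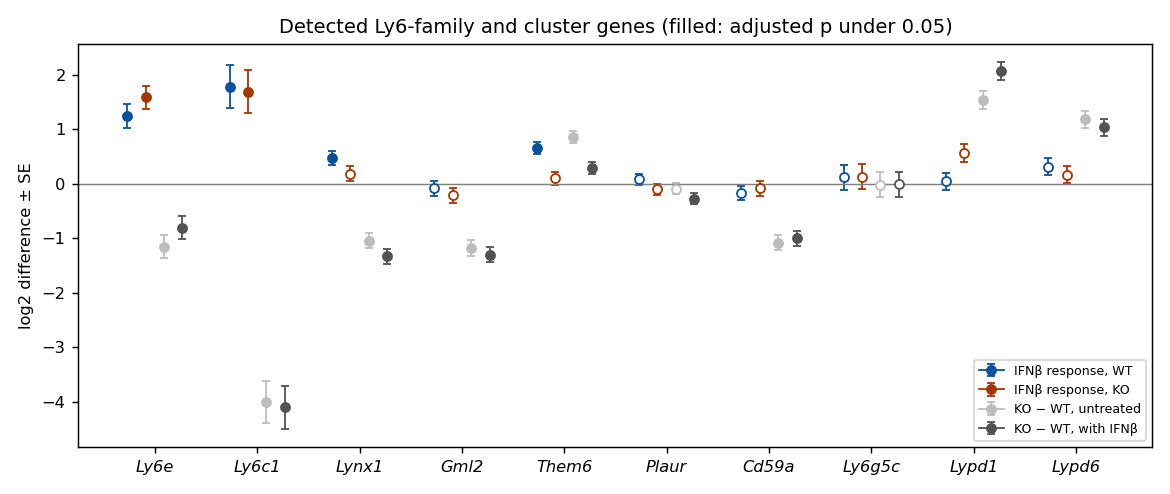
Log2 difference ± SE (y axis) in 4 comparisons (colours) for Ly6e, Ly6c1 and the detected genes of the family and the chromosome 15 cluster (x axis), filled where the adjusted p was under 0.05. Ly6c1 shows the lowest genotype differences, near −4, Lypd1 and Lypd6 lie above 0, and Cd59a was below detection in both knockout groups.

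The enzymes that build the GPI anchor and attach it to proteins such as the Ly6 family were 23 tested genes. With IFNβ, 1 rose and 1 fell in wild type, and 0 passed in the knockout by limma, where 1 had an unadjusted p under 0.05. Of all probes, 5.73% rose and 6.18% fell in wild type, and 4.02% and 1.93% in the knockout. Without IFNβ, 10 of 23 were higher and 2 lower in the knockout, with a median of 0.26, beside 26.3% higher and 22.6% lower of all probes. Among the higher ones were Pigo at 1.03 (limma's adjusted p = 2.61e-05) and Pigb at 0.96 (adjusted p = 0.000496), transferases that add parts of the anchor. Against untreated knockout array 1 alone, 6 were higher and 2 lower. With IFNβ, 9 were higher and 1 lower, with a median of 0.22, beside 26.6% higher and 21.7% lower of all probes. The lower one was Mppe1, a phosphatase that remodels the anchor, at −1.26 (adjusted p = 1.73e-05), which was also the gene that rose in wild type, by 0.97 (adjusted p = 0.000868).

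Of 18 tested genes of the interferon receptor and its signalling, 9 rose and 0 fell in wild type, with a median of 0.49, and 7 rose and 0 fell in the knockout, with a median of 0.44. At an unadjusted p under 0.05, limma counted 10 higher and 0 lower in each genotype. Over all probes the medians were −0.06 and −0.05. Past the threshold, 5.73% of all probes rose and 6.18% fell in wild type, and 4.02% and 1.93% in the knockout. Stat2, a transcription factor activated by the receptor, rose by 4.26 ± 0.52 in wild type (SE, n = 3 per group, limma's adjusted p = 8e-05) and by 2.83 in the knockout (adjusted p = 0.00395). Irf9, its partner, rose by 2.80 in the knockout (adjusted p = 7.27e-06). Against untreated knockout array 1 alone, Stat2 rose at least 18.2-fold, being undetected there, and Irf9 rose by 3.46. Without IFNβ, 5 were higher and 4 lower in the knockout, shares near those of all probes (26.3% and 22.6%). Usp18, a brake on the receptor, differed most, at 4.25 (adjusted p = 0.00817). Against untreated knockout array 1 alone, 0 were higher and 3 lower by limma, with 0 higher at an unadjusted p under 0.05 as well, and the Usp18 difference was 0.04 (adjusted p = 0.893). With IFNβ 2 were higher and 2 lower, beside 26.6% and 21.7% of all probes, among them the kinase Jak2 at −0.90 (adjusted p = 7.31e-05).

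Of 18 tested genes for other small or surface proteins known to be induced by interferon, 15 rose and 0 fell in each genotype, with a median of 1.77 in wild type and 1.87 in the knockout. At an unadjusted p under 0.05, 16 and 17 were higher and 0 lower by limma. Without untreated knockout arrays 2 and 3, 15 rose in the knockout too and the median was 2.51. Isg15, a ubiquitin-like protein, rose by 7.17 ± 0.58 in wild type (SE, n = 3 per group, limma's adjusted p = 1.79e-06) and by 3.30 in the knockout (adjusted p = 0.00264). Cd274, which encodes the immune checkpoint ligand PD-L1, rose at least 63.1-fold in wild type, where 0 of 3 untreated arrays detected it, and by 3.51 on the log2 scale in the knockout (adjusted p = 0.000773). Tap1, a peptide transporter for antigen presentation, rose by 4.06 (adjusted p = 1.96e-05) and 3.41 (adjusted p = 0.00016). The knockout responses of these genes moved with untreated arrays 2 and 3, and against array 1 alone they were 5.34 for Isg15, 5.35 for Cd274 and 4.80 for Tap1. By level, Cd274 and Tap1 belong to the interferon-induced set by which array 1 was told apart. Their values against it restate that choice and are not a separate result. Without IFNβ, 9 were higher and 5 lower in the knockout (26.3% and 22.6% of all probes), with a median of 0.60, but against array 1 alone 4 were higher and 5 lower, with a median of 0.09. Ly6e and Ly6c1 were lower in the knockout in both settings. With IFNβ, where 26.6% of all probes were higher and 21.7% lower, 4 were higher, including H2-K1 at 1.25 (adjusted p = 0.00127), and 3 were lower, including Ifi27l2a at −1.41 (adjusted p = 0.00251).

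Most fibroblast markers were lower in the knockout, as Ly6e and Ly6c1 were. Of 13 tested fibroblast markers, 10 were lower and 0 higher in the untreated knockout by limma (1 higher at an unadjusted p under 0.05), and 9 lower and 1 higher with IFNβ, with medians of −0.83 and −0.80. Of all probes, 22.6% were lower and 26.3% higher untreated, and 21.7% lower and 26.6% higher with IFNβ. Normalized levels on the linear scale were summed over every probe of the 14 listed genes, detected or not. The sum ranged from 29276 to 37327 in wild-type arrays and from 15468 to 18352 in knockout arrays. Thy1, a GPI-anchored protein of fibroblasts, was lower by −2.99 and −3.30 (limma's adjusted p = 2.85e-06 and 1.1e-06), and Dcn, a matrix proteoglycan, by −4.20 and −4.42 (adjusted p = 6.8e-07 and 4.17e-07). Against untreated knockout array 1 alone, Thy1 was lower by −3.93 and Dcn, undetected there, at least 26.6-fold. By level, Dcn belongs to the wild-type-only set by which array 1 was told apart, so its value there restates that choice. Of 10 mesenchymal progenitor markers, 8 were tested, 2 were higher and 3 lower without IFNβ, beside 26.3% and 22.6% of all probes. Cd34 was higher by 1.34 (adjusted p = 4.15e-05) and Nt5e lower by −1.18 (adjusted p = 3.67e-05). The same sum for these 10 genes ranged from 12957 to 15159 in wild-type and from 15020 to 18637 in knockout arrays. The part of these shifts in the Ly6 values was not tested.

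Most markers of the blood and vessel cells known to carry Ly6C were not detected. Of 17 haematopoietic markers with a probe, 13 were detected on no array, among them Ptprc, the pan-leukocyte antigen, Itgam and Adgre1. Normalized linear levels summed over all 17, undetected ones included, ranged from 1109 to 1264 in wild-type and from 902 to 957 in knockout arrays. Among the 3 tested, Cd14, which binds lipopolysaccharide, was lower in the knockout by −1.33 without and −1.41 with IFNβ (limma's adjusted p = 2.97e-07 and 1.63e-07), and Coro1a was higher by 1.18 without IFNβ. Of 14 endothelial markers, 8 were detected on no array, among them Pecam1 and Kdr. Flt1, a receptor for vascular growth factors, was detected on all arrays with a level of 9.07 in untreated wild type, and its differences did not pass the threshold. Esam, an adhesion molecule of endothelial cells, rose with IFNβ by 0.81 in wild type (adjusted p = 0.0143) and by 0.81 in the knockout (adjusted p = 0.0221), and the change in Eng did not pass in any comparison. Against untreated knockout array 1 alone the Esam response in the knockout was 1.01 (adjusted p = 0.0645). The part of these genes in the Ly6 values was not tested. For the 14 endothelial markers this sum of levels ranged from 970 to 1064 in wild-type and from 1025 to 1217 in knockout arrays. Of 10 epithelial markers, 5 were detected on no array, among them Epcam. Krt18, a keratin, was lower in the knockout by −3.90 without IFNβ (adjusted p = 1.46e-07), at least 19.2-fold against untreated knockout array 1 alone, and at least 22.5-fold with IFNβ. By level, Krt18 too belongs to the wild-type-only set, so its value against array 1 is not a separate result.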

How the data were processed

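Total RNA of 12 samples (150 ng each) was biotinylated and read on 12 Illumina bead arrays of 1 colour, per the labels' protocols. The authors deposited a linear intensity per probe with no background subtracted, and, per the file headers, a detection p-value beside it. A second deposited table holds log2 values, which equal the quantile-normalized log2 intensities within 0.000639. The sources used here do not name the scanner software. The annotation gives 1 gene symbol for 34885 of 45281 probes, several for 18 and none for 10378, and 34807 symbols were looked up by gene ID, with 0 changed.

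Intensities were corrected with normexp (negative controls taken from detection p-values, offset 16), quantile-normalized and log2-transformed (limma 3.58.1, R 4.3.3). Probes with a detection p under 0.05 on all 3 arrays of a group were tested, 17837 in all. Group means were fitted to 12 arrays with lmFit and eBayes, with 5 two-sided contrasts and Benjamini-Hochberg adjustment over all tested probes at 0.05. The script was tested on simulated data. A fold is a lower bound, against the lowest signal among detected probes, where no array of a group detected the probe. A list gene stands for its tested probe of highest mean. Named were all member probes, Sirt2, the 5 genes closest in Pearson's r to each member, detected family genes and up to 3 genes of largest change per list. Of these, not all are printed; Them6, the defining cell-type markers at background and genes detected on few arrays were named after their values were seen. The wild-type-only and interferon-induced genes were chosen by level after the values were seen, without any untreated knockout array. The members and lists were chosen with earlier results of these data known. Background correction, scaling, offset, filter, probe choice, groups fitted, array weights, replicate block and single arrays were varied. Equal replicate numbers do not pair the arrays: deviations of same-numbered arrays correlated with r from −0.105 to 0.164, and 4 of 18 pairs exceeded 0.1. The number of arrays limits the precision.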

Additional observations from a re-analysis of the deposited data

How the results depend on the processing

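Over 22 settings, 312 of 322 recomputed Ly6 values kept their direction and their side of the threshold, 7 no longer passed it, 0 newly passed and 3 changed sign; with 1 array left out, 174 of 180 were kept. The Ly6e values, the wild-type responses and the genotype differences of the 3 probes all kept both. The Ly6c1 response in the knockout stayed at 1.68 but missed the threshold with no filter (adjusted p = 0.0831) and in a fit of only the 2 groups (adjusted p = 0.0907), where more probes or fewer arrays enter; leaving out 1 array gave 1.33 to 2.36. The Ly6c1 difference of the responses changed sign with array weights (0.036), without untreated knockout array 3 (0.58) and, in a setting chosen after seeing the data, without arrays 2 and 3 (0.55); leaving out 1 array gave −0.45 to 0.58, and the cause was not tested. The count of 72 probes with different responses became 110 with an offset of 50, 40 with no filter, 143 with array weights and 42 without untreated knockout arrays 2 and 3. Leaving out 1 array gave 47 to 214, the highest without untreated knockout array 1. With the replicate number as a block, no Ly6 call changed, the Ly6c1 response in the knockout was 1.68 (adjusted p = 0.0193), and 58 probes differed in response; the numbers do not pair the arrays. A slide block was not run, since the files name no slides. Signal near the detection floor limits the Ly6c1 values in the untreated knockout.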
